A study of Mus musculus with 60 samples.

Results

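The LIF receptor pathway was followed through 10 genes, of 24260 gene symbols in the nascent RNA of mouse embryonic stem cells. They were chosen by name from RefSeq transcripts: the receptor genes Lifr and Il6st, the kinase gene Jak1 and the transcription factor gene Stat3, then 6 downstream targets, Socs3, Bcl3, Junb, Pim1, Pim2 and Pim3. All 10 were found, in 13 transcripts, and the transcript with the highest RPKM summed over the libraries stood for each gene. RPKM are reads per kilobase of transcript span, normalised to the depth of the library.

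Leukaemia inhibitory factor (LIF) keeps mouse embryonic stem cells undifferentiated in serum culture. It joins the LIF receptor to gp130, the product of Il6st. The Janus kinases bound to this pair phosphorylate STAT3, which enters the nucleus and switches on its targets. Among these, Socs3 encodes the inhibitor that closes the loop by blocking the receptor and its kinases, and the Pim genes encode serine/threonine kinases that favour growth and survival.

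Chromatin-bound RNA of E14 cells, a male mouse embryonic stem cell line, was sequenced in 2 libraries after lipofection of Esrrb siRNA (siEsrrb) and in 2 after lipofection of control siRNA (siCtrl). Both groups grew on gelatin in serum medium with LIF at 1000 U/ml and were harvested 72 h after transfection, so every value below was measured with LIF present. Esrrb is an orphan nuclear receptor of the naive pluripotency network, and the study asked how genes within a small chromatin domain respond when its knockdown inactivates enhancers there. The other 56 samples of the series were not analysed here.

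The libraries held 22363943 and 61857158 reads in siEsrrb replicates 1 and 2, and 24764879 and 68002338 reads in siCtrl replicates 1 and 2. Nascent RNA of Esrrb itself (NM_011934) stood at 44.2% of control in replicate 1 and at 67.0% in replicate 2 (limma adjusted p 0.281). Esrrb mRNA and protein were not examined here, so these values do not give the depth of the knockdown. All 9 stem cell markers examined were above the expression minimum of 0.5 RPKM, with a summed scaled level of 117 and 103 RPKM in siEsrrb and 121 and 116 RPKM in siCtrl (replicates 1 and 2). Of these, 4 were lower in both siEsrrb libraries, 1 was higher and 4 overlapped, beside 22.0% lower and 21.8% higher of all genes tested. The lower ones were Zfp42 (log2 fold change -0.85), Dppa5a (-0.62), Nanog (-0.47) and Tdgf1 (-0.08), and the higher one was Pou5f1 (0.42). Of the other markers, 4 of 10 for fibroblasts (Vim, Fn1, Acta2 and Tagln), 1 of 6 for primitive endoderm (Sparc) and 2 of 5 for trophectoderm (Krt8 and Krt18) were above that minimum, while Gata4, Gata6, Sox17, Cdx2, Elf5 and Postn averaged at most 0.0488 RPKM. The summed trophectoderm markers had 15.5 and 9.49 scaled RPKM in siEsrrb and 10.0 and 6.89 in siCtrl. Krt8 and Krt18 made up nearly all of that sum, and Eomes of the same list, under the minimum, had 0.0563 and 0.110 RPKM in siEsrrb and 0.132 and 0.244 RPKM in siCtrl. The fibroblast markers summed to 17.0 and 18.5 in siEsrrb and to 15.5 and 17.4 in siCtrl. Fn1 alone had 9.77 and 11.7 of this in siEsrrb and 9.96 and 11.9 in siCtrl. Of the 4 above the minimum, Acta2 (log2 fold change 0.44) and Tagln (0.62) were higher in both siEsrrb libraries. Vim (0.03) and Fn1 (-0.02) overlapped. Those of primitive endoderm summed to 2.35 and 2.31 in siEsrrb and to 2.08 in both siCtrl libraries. The part of other cells in the results was not tested, and in bulk RNA fewer cells of a type and less RNA per cell cannot be told apart.

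Of the 4 receptor and transducer genes, 3 (Lifr, Il6st and Stat3) were lower in both siEsrrb libraries and Jak1 overlapped, while the 6 targets were divided. Lifr was the lowest of the 10 by log2 fold change over the 4 libraries (-0.58), at 54.2% and 69.1% of control in replicates 1 and 2. Bcl3 was close (-0.52), at 56.4% and 67.4%, with the lower percent in replicate 2, so the order of these 2 is not settled. Pim2 alone of the 10 had its siEsrrb libraries above the controls, at 356% and 211% of control. No gene passed the adjusted test: limma called 0 of 9758 genes (0%), and voom on the reads behind the RPKM called 0 of 9751 (0%). At p under 0.05 before adjustment, limma had 1098 genes (11.3%) and voom 1195 (12.3%). Of the 10 genes, Lifr and Bcl3 were among those lower in siEsrrb, as were 5.33% of all genes tested, and Pim2 was among those higher, as were 5.92%. Once the libraries were paired by number in the fit, though the labels do not pair them, voom called 2750 of 9751 genes (28.2%), with 7 of the 10 genes among them. The values below therefore describe these 4 libraries. Both siEsrrb libraries lay below both siCtrl libraries for 5 of the 10 genes, against 22.0% of all genes tested. They lay above for 1 of the 10, against 21.8% of all genes tested.

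**Figure D1:**
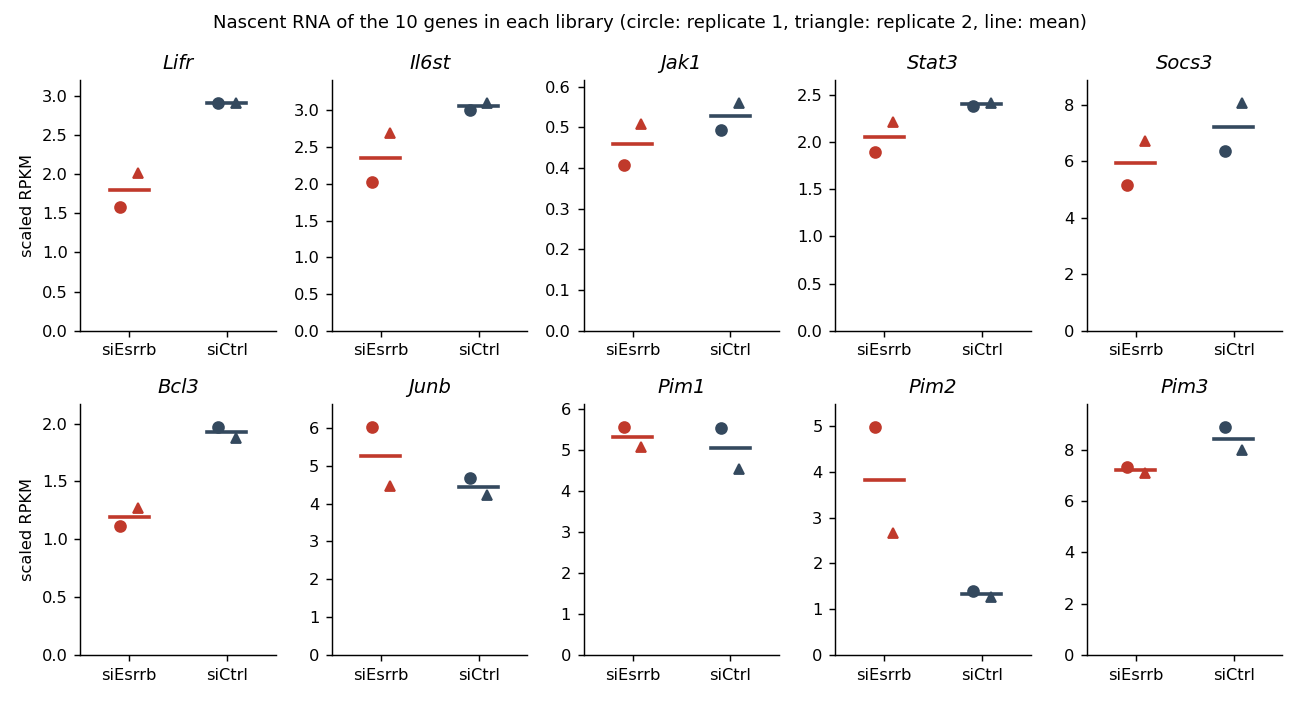
Scaled RPKM (vertical axis, from 0, a scale of its own in each panel) of the 10 genes in siEsrrb (left) and siCtrl (right) libraries, with circles for replicate 1, triangles for replicate 2 and a line at the mean. Lifr, Il6st, Stat3, Bcl3 and Pim3 have both siEsrrb points under both siCtrl points, and Pim2 has both above.

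Lifr encodes the subunit that binds LIF. It had 1.45 and 2.13 RPKM in siEsrrb replicates 1 and 2, against 2.77 and 3.16 RPKM in siCtrl replicates 1 and 2, from 1847, 7497, 3911 and 12226 reads. Both siEsrrb libraries lay below both controls, and the scaled controls lay close together, at 2.91 ± 0.0065 RPKM, against 1.80 ± 0.311 RPKM in siEsrrb (SD, n = 2 each). The log2 fold change on the scale of scaled RPKM + 0.5 was -0.58 (SE 0.12; limma adjusted p 0.281), and 198 of the 9758 tested genes had a lower one. The 95% counting intervals for the percent of control were 51.2 to 57.3 in replicate 1 and 67.1 to 71.1 in replicate 2, so the replicates differed by more than counting error, which leaves out the spread between libraries.

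A second Lifr transcript was listed with its own values. NM_013584, used above, spans 56948 bases and NM_001113386 spans 55772 bases, and their annotations overlap, so that they can share reads. NM_001113386 had 1.07 and 1.66 RPKM in siEsrrb and 2.19 and 2.44 RPKM in siCtrl. This was 50.7% and 69.7% of control, with the same log2 fold change of -0.58. The ratio of NM_013584 to NM_001113386 was 1.35 and 1.28 in siEsrrb and 1.27 and 1.30 in siCtrl, so the groups overlapped.

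RefSeq lists 2 Lifr starts. The 250 bases before the upstream one (GRCm38.p6, chr15:7129322-7129571, plus strand) are shown because they hold, near their far end, the core letters that estrogen-related receptors such as Esrrb are known to bind. Capitals mark TGACCTT, which reads AAGGTCA on the other strand. The window before the downstream start (chr15:7140292-7140541) has no such match, and which start belongs to NM_013584 was not examined.
Lifr: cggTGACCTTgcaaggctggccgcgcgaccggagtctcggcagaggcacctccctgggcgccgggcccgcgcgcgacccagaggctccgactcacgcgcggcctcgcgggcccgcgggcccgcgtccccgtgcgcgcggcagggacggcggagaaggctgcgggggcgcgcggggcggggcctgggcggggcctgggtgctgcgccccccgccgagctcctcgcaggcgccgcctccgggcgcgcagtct
AAGGTCA was found on either strand in the windows of Lifr and Pim3, 2 of 12 windows of the 10 genes, and in 4.08% of all 32851 windows of that length. The longer TCAAGGTCA, which contains it, was in none of the 12 and in 0.387% of all windows. A match is a description of letters only, since no binding data were used.

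Il6st encodes gp130, the subunit that all cytokines of the family share. It had 1.86 and 2.84 RPKM in siEsrrb and 2.87 and 3.36 RPKM in siCtrl. After scaling, the siEsrrb libraries, at 2.02 and 2.69 RPKM, lay below the controls, at 3.01 and 3.11. The percent of control was 67.1 in replicate 1 and 86.6 in replicate 2, and the log2 fold change was -0.33 (SE 0.14; limma adjusted p 0.491). It was -0.16 without siEsrrb replicate 1 and -0.50 without siEsrrb replicate 2. Lifr was lower than Il6st in relation to its own control: the ratio of Lifr to Il6st RPKM within a library, which no scaling touches, was 0.780 and 0.750 in siEsrrb and 0.966 and 0.939 in siCtrl.

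Stat3, the transcription factor at the end of the relay, had 1.75 and 2.34 RPKM in siEsrrb and 2.27 and 2.62 RPKM in siCtrl. The scaled groups did not overlap, whereas the deposited values do: siEsrrb replicate 2 lies above siCtrl replicate 1 until the libraries are scaled. Stat3 stood at 79.8% and 91.3% of control (log2 fold change -0.19, SE 0.09; limma adjusted p 0.535), and the value was -0.10 without siEsrrb replicate 1. Its 3 listed transcripts carry identical values, so they give no view of the alpha and beta forms. Jak1, the kinase bound to gp130, was the lowest of the 10 by level, at 0.375 and 0.537 RPKM in siEsrrb and 0.471 and 0.607 in siCtrl. Its mean of 0.498 RPKM was under the minimum of 0.5, so it was left out of the main test. The groups overlapped, at 82.5% and 90.7% of control, and a fit of every gene gave it a log2 fold change of -0.10 (SE 0.10; limma adjusted p 0.800).

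Socs3, the feedback inhibitor, had 4.73 and 7.09 RPKM in siEsrrb and 6.07 and 8.74 RPKM in siCtrl. Each siEsrrb library was below the control of its own number, at 80.8% and 83.2%, but the 2 replicate numbers lay so far apart that the groups overlapped. The log2 fold change was -0.27 (SE 0.19; limma adjusted p 0.649). It was -0.09 without siEsrrb replicate 1, -0.44 without siEsrrb replicate 2, -0.43 without siCtrl replicate 1 and -0.11 without siCtrl replicate 2. In relation to the receptor, Socs3 was higher: the ratio of Socs3 to Lifr RPKM was 3.26 and 3.33 in siEsrrb and 2.19 and 2.77 in siCtrl.

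The 250 bases before the Socs3 start (GRCm38.p6, chr11:117969367-117969616, minus strand) are shown as the only window of the 12 with a STAT motif. Capitals mark TTCTTAGAA, a match to TTCNNNGAA that lies 154 bases before the start.
Socs3: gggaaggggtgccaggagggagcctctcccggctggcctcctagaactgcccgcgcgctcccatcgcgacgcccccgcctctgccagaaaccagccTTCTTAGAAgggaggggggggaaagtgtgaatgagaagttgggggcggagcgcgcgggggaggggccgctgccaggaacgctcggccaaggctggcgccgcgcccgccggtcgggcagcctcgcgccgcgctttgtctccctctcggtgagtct
TTCNNNGAA reads the same on both strands and was in 7.02% of all windows. The same palindrome with a spacer longer by 1 base was in 5.85% of all windows and in none of the 12.

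Bcl3, an atypical I-kappa-B protein that acts as a nuclear cofactor of NF-kappa-B, had 1.02 and 1.34 RPKM in siEsrrb and 1.88 and 2.03 RPKM in siCtrl. The groups did not overlap, at 56.4% and 67.4% of control. Its log2 fold change of -0.52 had an SE of 0.08, and 227 of the 9758 tested genes had a lower fold change. The limma adjusted p of Bcl3, 0.247, was the smallest reached, but other genes shared it, among them Jak3, Klf4 and Tfcp2l1. Junb, an AP-1 subunit, had 5.54 and 4.71 RPKM in siEsrrb and 4.45 and 4.56 RPKM in siCtrl. Scaled, siEsrrb replicate 2 lay between the controls, so the groups overlapped (128.9% and 106% of control, log2 fold change 0.20, SE 0.17; limma adjusted p 0.697). The value was 0.01 without siEsrrb replicate 1 and 0.40 without siEsrrb replicate 2. Without scaling Junb was higher in both siEsrrb libraries. Its reads were the fewest of the 10 in siEsrrb, 228 and 536, and the counting interval in replicate 2 ran from 93.8% to 119% of control.

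Of the 3 Pim genes, Pim2 lay above its controls, Pim3 below and Pim1 overlapped them. Pim2 had 4.58 and 2.81 RPKM in siEsrrb and 1.33 and 1.37 RPKM in siCtrl, from 525, 891, 169 and 476 reads. Both siEsrrb libraries were above both controls, and siEsrrb replicate 1 was the highest by far. The log2 fold change was 1.19 (SE 0.28; limma adjusted p 0.321), and 47 of the 9758 tested genes had a higher one. The counting interval for the percent of control was 299 to 427 in replicate 1 and 188 to 236 in replicate 2. These intervals cover counting error only and leave out the spread between libraries. Without siEsrrb replicate 1 the log2 fold change was 0.79, and without siEsrrb replicate 2 it was 1.58.

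Pim3 had 6.75 and 7.49 RPKM in siEsrrb and 8.47 and 8.62 RPKM in siCtrl. It was lower in both siEsrrb libraries, at 82.5% and 89.0% of control (log2 fold change -0.21, SE 0.11; limma adjusted p 0.552), and the value was -0.14 without siCtrl replicate 1. Pim1, the member best known as a STAT3 target, had 5.12 and 5.37 RPKM in siEsrrb and 5.29 and 4.92 RPKM in siCtrl. The groups overlapped, at 100.5% and 112% of control (log2 fold change 0.08, SE 0.13; limma adjusted p 0.871), and the value was -0.05 without siCtrl replicate 2, 0.21 without siCtrl replicate 1, 0.02 without siEsrrb replicate 1 and 0.14 without siEsrrb replicate 2. Pim2 had 0.894 and 0.523 of the RPKM of Pim1 in siEsrrb and 0.252 and 0.277 in siCtrl. It made up 27.8% and 17.9% of the summed RPKM of the 3 Pim genes in siEsrrb and 8.82% and 9.16% in siCtrl. Their summed scaled level was 17.9 and 14.8 RPKM in siEsrrb and 15.8 and 13.8 RPKM in siCtrl, so the groups overlapped for the sum and did not for the share of Pim2.

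**Figure D2:**
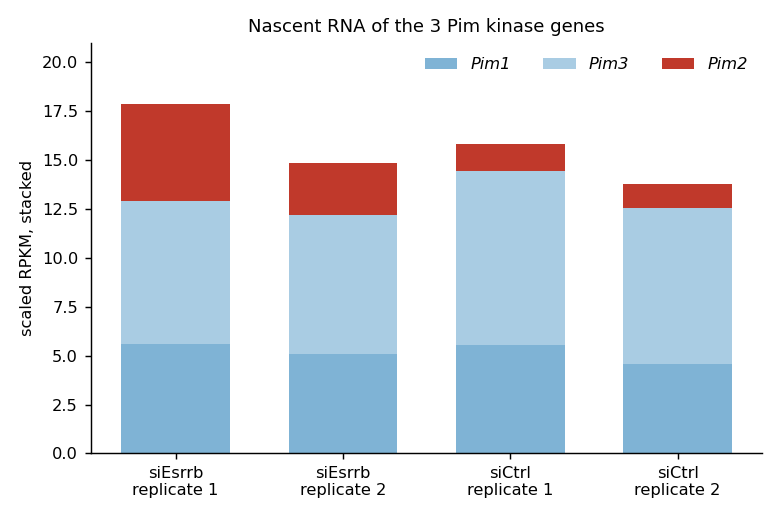
Stacked scaled RPKM (vertical axis, from 0) of Pim1, Pim3 and Pim2 in the 2 siEsrrb libraries (left) and the 2 siCtrl libraries (right). The upper segment, Pim2, reaches 4.98 and 2.66 in siEsrrb and 1.40 and 1.26 in siCtrl, and the whole bars reach 17.9 and 14.8 in siEsrrb and 15.8 and 13.8 in siCtrl.

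The windows before the Pim2 start (GRCm38.p6, chrX:7878056-7878305, plus strand) and before the Pim3 start (GRCm38.p6, chr15:88861944-88862193, plus strand) are set side by side because Pim2 was higher and Pim3 lower in both siEsrrb libraries. Capitals in Pim3 mark TGACCTT again, 171 bases before the start, and the Pim2 window has no match to any of the 4 motifs. The windows of Il6st, Stat3 and Bcl3, also lower in both siEsrrb libraries, have none either, nor do those of Jak1, Junb and Pim1, which overlapped.
Pim2: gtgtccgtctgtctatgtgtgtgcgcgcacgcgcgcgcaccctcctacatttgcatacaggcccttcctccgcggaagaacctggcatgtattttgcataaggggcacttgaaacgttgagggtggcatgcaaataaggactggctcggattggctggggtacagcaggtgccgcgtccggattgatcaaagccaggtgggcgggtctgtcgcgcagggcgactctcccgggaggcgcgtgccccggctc
Pim3: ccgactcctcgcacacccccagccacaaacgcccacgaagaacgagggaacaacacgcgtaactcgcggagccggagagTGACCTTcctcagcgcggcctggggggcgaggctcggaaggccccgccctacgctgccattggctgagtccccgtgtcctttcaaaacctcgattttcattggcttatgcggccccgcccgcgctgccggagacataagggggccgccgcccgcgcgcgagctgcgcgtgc
GC made up 62% of the Pim2 window and 68% of the Pim3 window.

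Receptors and targets were then set against each other within each replicate number. The 4 receptor and transducer genes had a median log2 fold change of -0.26, with -0.37 in replicate 1 and -0.14 in replicate 2, and each of the 4 was negative in both replicates. The receptor median was -0.13 without siEsrrb replicate 1 and -0.39 without siEsrrb replicate 2. The 6 downstream targets had a median of -0.07, with -0.13 and -0.04, and a range from -0.52 to 1.19. Of these, Socs3, Bcl3 and Pim3 were negative in both replicates and Junb, Pim1 and Pim2 positive in both. The median of the targets was 0.04 without siCtrl replicate 1, and 0.08 at a mean RPKM of at least 2, where Bcl3 was no longer tested. Its sign thus depends on the libraries and genes included, and it was -0.21 over the 5 targets other than Pim2. Over all genes tested the median was -0.00104. The difference between the 2 sets was not tested, since genes are not replicates. The 4 receptor and transducer genes span 42791 to 113309 bases and the 6 targets 1840 to 14294 bases. Role and gene span therefore cannot be told apart in this comparison.

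**Figure D3:**
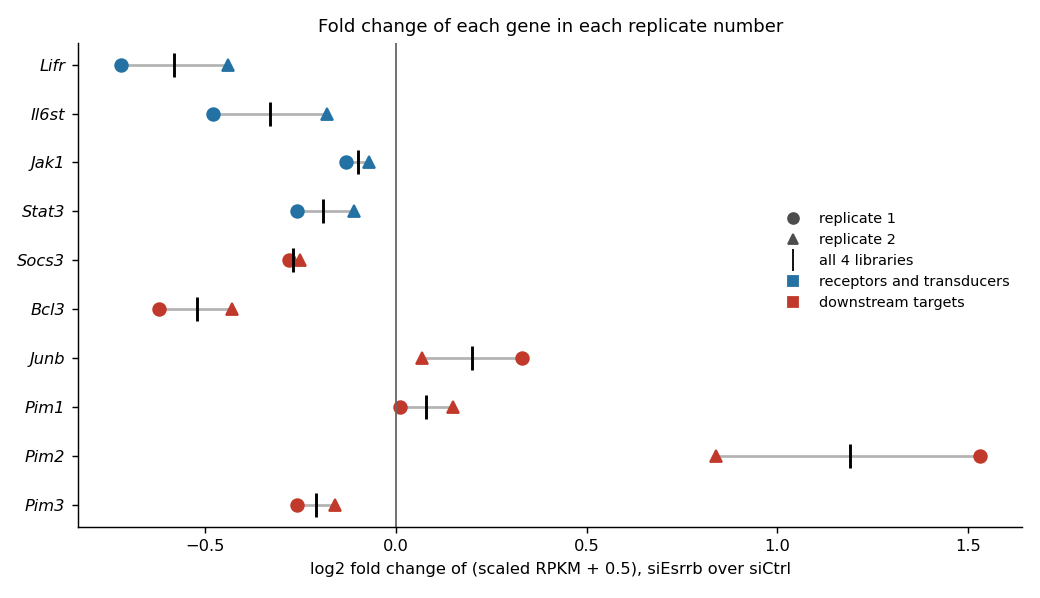
Log2 fold change of scaled RPKM + 0.5, siEsrrb over siCtrl (horizontal axis), for each of the 10 genes, with circles for replicate 1, triangles for replicate 2 and a black tick for all 4 libraries. The receptor and transducer genes (blue) all lie left of 0 in both replicates. The points of the targets (red) run from -0.62 for Bcl3 to 1.53 for Pim2, both in replicate 1. Their black ticks run from -0.52 for Bcl3 to 1.19 for Pim2.

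All 10 genes had the same sign in both replicate numbers, as did 77.4% of all genes tested. The difference was larger in replicate 1 for 9 of the 10, Pim1 being the exception, and for 72.4% of all genes tested. Esrrb was lower in siEsrrb replicate 1 than in siEsrrb replicate 2, and the part of this in the sizes was not tested.

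**Figure D4:**
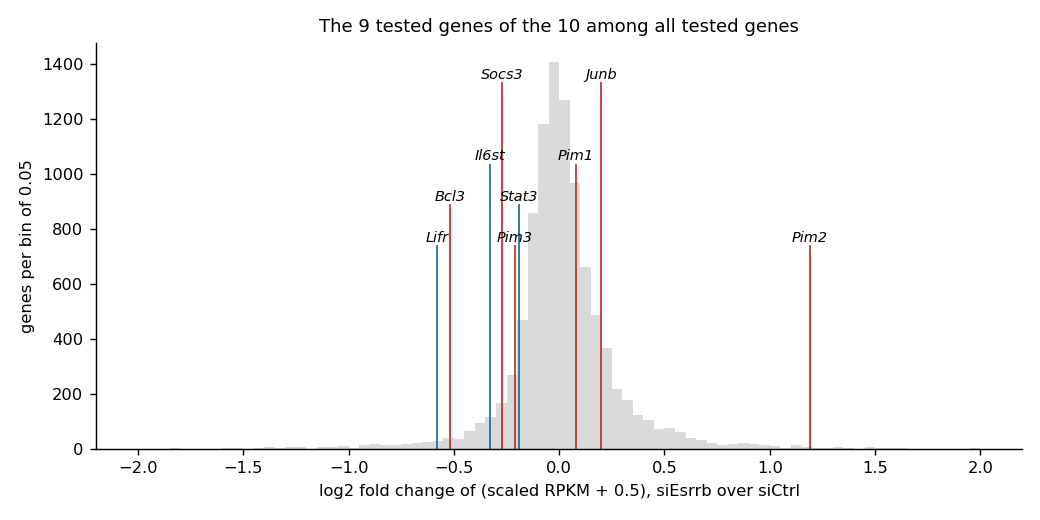
Number of tested genes (vertical axis) per bin of 0.05 in log2 fold change of scaled RPKM + 0.5, siEsrrb over siCtrl (horizontal axis), with a line for each of the 9 tested genes of the 10 (blue for receptor and transducer genes, red for targets). Lifr, Bcl3 and Pim2 stand in the tails, and 17 genes beyond 2 in either direction are not drawn.

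The order of levels, per base of gene span, differed mainly through the place of Pim2. In siEsrrb the order was Pim3, Socs3, Pim1, Junb, Pim2, Il6st, Stat3, Lifr, Bcl3 and Jak1. There, each pair of neighbours from Socs3 to Lifr had overlapping libraries. In siCtrl it was Pim3, Socs3, Pim1, Junb, Il6st, Lifr, Stat3, Bcl3, Pim2 and Jak1. Neighbours there whose libraries overlapped were Pim3 with Socs3 and Pim1 with Junb. Lifr stood above Stat3 in siCtrl and below it in siEsrrb: the ratio of Lifr to Stat3 RPKM was 0.829 and 0.911 in siEsrrb and 1.22 and 1.20 in siCtrl.

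The genes most like Lifr and Pim2 were sought by the distance between centred log2 values in the 4 libraries, over 7079 genes with a mean of at least 1 RPKM. For Lifr they were Sntb2 (log2 fold change -0.61, distance 0.0360), Cdc5l (-0.58, 0.0367) and Pitpnc1 (-0.56, 0.0430). For Pim2 they were Id1 (1.15, 0.154), the short miRNA gene Mir92-1 (1.16, 0.233) and Cdkn1c (1.02, 0.237). Distances to Pim2 were larger, so its profile had no match as close as those of Lifr.

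The nearest tested genes on either side of the 10 had a median log2 fold change of -0.02 over 20 genes, with 5 lower and 4 higher in both siEsrrb libraries, beside 22.0% and 21.8% of all genes tested. Beside Lifr, Rictor had -0.03 (SE 0.11) and Wdr70 -0.10 (SE 0.08). Beside Bcl3, Bcam had 0.10 (SE 0.19) and Pvr 0.08 (SE 0.07). Beside Pim2, Otud5 and Pqbp1 both had 0.07 (SE 0.13 and 0.10). The largest was Mtch1, next to Pim1, at 0.42 (SE 0.09; limma adjusted p 0.288), above Pim1 itself. Prdx2, next to Junb, had 0.24 (SE 0.07), close to Junb. The remaining neighbours lay between -0.26 and 0.07, and their differences from the 10 genes were not tested. Jak1, Stat3, Bcl3, Pim1 and Pim3 overlap another annotated gene, with which they may share reads, since the use of strand in counting is not given in the sources used here.

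The cytokines and further receptors of the family were mostly under the expression minimum. Of 7 ligand genes only Cntf was tested (log2 fold change -0.14, SE 0.08, lower in both siEsrrb libraries), and Lif, Il6, Il11, Osm, Ctf1 and Clcf1 were below it. Scaled, all of these but Osm, which overlapped, were higher in both siEsrrb libraries, beside 21.8% of all genes tested. Ctf1 stood at 136% and 162% of control and Clcf1 at 175% and 128%, while Il6 had at most 5 reads in a library. Lif had 0.352 and 0.452 RPKM in siEsrrb and 0.275 and 0.370 in siCtrl, from 45 reads in siEsrrb replicate 1 and 39 in siCtrl replicate 1. These deposited values overlap, whereas the scaled ones, 0.383 and 0.429 in siEsrrb and 0.289 and 0.342 in siCtrl, do not. Of 5 other receptor genes only Cntfr, the receptor of ciliary neurotrophic factor, was tested (0.35, SE 0.15, higher in both siEsrrb libraries), with Il6ra, Il11ra1, Osmr and Il27ra below the minimum. Il6ra stood at 47.7% and 50.6% of control and Osmr at 53.3% and 61.6%. Both were lower in both siEsrrb libraries, beside 22.0% of all genes tested, at means of 0.0543 and 0.0154 RPKM. Il11ra1 and Il27ra overlapped.

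Among the other Janus kinases, Jak3 had 2.51 and 2.60 RPKM in siEsrrb and 3.97 and 4.20 RPKM in siCtrl. It stood at 65.5% and 63.4% of control in the 2 replicates (log2 fold change -0.55, SE 0.09; limma adjusted p 0.247), with no overlap between groups. Jak3 was thus above Jak1 in RPKM in all 4 libraries. Tyk2 had 0.03 (SE 0.07), and Jak2 was below the minimum. Among other STAT genes, Stat2 (-0.15, SE 0.23) and Stat6 (-0.09, SE 0.16) were tested and overlapped, and Stat4, Stat5a and Stat5b were below the minimum.

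Inhibitors other than Socs3 had a median of 0.00 over 10 tested of 14 genes, with 3 lower in both siEsrrb libraries and 1 higher, beside 22.0% and 21.8% of all genes tested. Pias2, a SUMO ligase of the family that restrains STATs, was the lowest at -0.54 (SE 0.11; limma adjusted p 0.281). Pias4 had -0.13 (SE 0.07) and Socs7, the remaining lower gene, -0.11 (SE 0.06). Socs2, which damps cytokine and growth hormone receptors, was the higher one at 0.26 (SE 0.14). Socs1, Socs5, Cish and Ptpn6 were below the minimum.

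In the ERK and PI3K branches of the receptor 2 of 11 tested genes were lower and 5 higher in both siEsrrb libraries, beside 22.0% and 21.8% of all genes tested, with a median of 0.00. Mapk3, which encodes ERK1, had 0.35 (SE 0.08; limma adjusted p 0.314), and Map2k1, its activating kinase MEK1, had -0.32 (SE 0.08; limma adjusted p 0.344). The adaptor gene Grb2 had -0.23 (SE 0.08), and Pik3r1 was below the minimum.

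Other STAT3 targets had a median of -0.12 over 11 genes, with 5 lower (Klf4, Tfcp2l1, Klf5, Kdm3a and Gbx2) and 1 higher (Zfp36). The naive factor genes Klf4 and Tfcp2l1 had -1.45 (SE 0.20) and -1.21 (SE 0.12), both lower than Lifr, and Klf5 had -0.45 (SE 0.14). Zfp36, an RNA-decay factor, had 0.51 (SE 0.17), and Myc had 0.21 (SE 0.23) with overlapping groups. Klf4, Tfcp2l1, Klf5 and Zfp36 had an unadjusted limma p under 0.05, 4 of 11 against 11.3% of all genes tested, and 0 of the 11 passed over all genes. The 5 lower and 1 higher stand beside 22.0% and 21.8% of all genes tested.

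Genes of known Pim substrates had a median of 0.04 over 8 tested, with 7 overlapping. Akt1s1, an inhibitor of the kinase mTOR, was the 1 apart, at 0.33 (SE 0.09; limma adjusted p 0.349). The AP-1 partners of Junb were higher for Jun (0.56, SE 0.14; limma adjusted p 0.338) and Jund (0.52, SE 0.24), and lower for Fos (-0.08, SE 0.06), while Fosb, Fosl1 and Fosl2 were below the minimum. Among relatives of Bcl3, Nfkb1, a DNA-binding partner of Bcl3 as p50, was lower in both siEsrrb libraries (-0.32, SE 0.08; limma adjusted p 0.337) and Nfkbib higher (0.22, SE 0.08). The other 5 tested overlapped (Relb -0.11, SE 0.09), the median over 7 was -0.09, and Rel and Nfkbie were below the minimum. The counts of each of these lists stand beside 22.0% lower and 21.8% higher of all genes tested, with 5486 of 9758 overlapping.

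**Figure D5:**
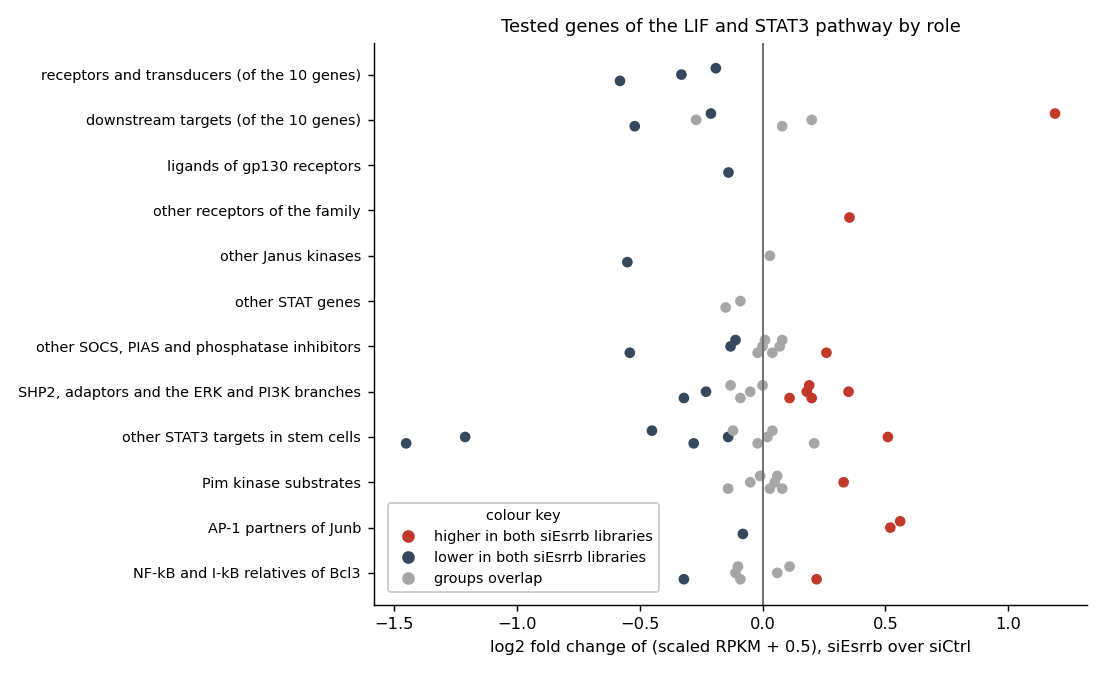
Log2 fold change of scaled RPKM + 0.5, siEsrrb over siCtrl (horizontal axis), of the tested genes of the pathway by role, with red points for genes higher in both siEsrrb libraries, dark points for genes lower in both and grey points where the groups overlap. Klf4 and Tfcp2l1 lie farthest left and Pim2 farthest right.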

How the data were processed

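Nascent RNA-seq of 4 libraries was used, grouped and numbered by their titles, in which only the later pair carries a number. Per the submitters' processing notes the reads went through CASAVA 1.4 and TopHat2, with Bowtie 1.1.1 and Bowtie2 named for replicate 1 only, on mm9. The counting program and the handling of strand are not given in the sources used. The authors deposited RPKM for 34929 RefSeq transcripts, and the table of the whole series equals the replicate 1 values. Symbols came from RefSeq (GRCm38.p6) for 34631 transcripts.

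Whole reads were recovered from the RPKM for 99.88% of transcripts above 0 (within 0.01 of a read), for all 10 genes. RPKM were scaled by median-of-ratios factors (0.925 to 1.09) and log2(RPKM + 0.5) was fitted with limma 3.58.1 (R 4.3.3, eBayes with trend, no replicate block) where a gene's mean RPKM reached 0.5, with Benjamini-Hochberg adjustment, two-sided, at 0.05. The fit was tried on simulated reads with known folds. These were drawn as independent libraries without a shift between replicate numbers, so the trial does not give the power of the test in these data. Fold changes on this scale understate those of low genes. Exact (Clopper-Pearson) intervals at 95% cover counting error only. An exact permutation test of 2 against 2 could not reach the threshold and was not used. The series text excepts nascent RNA from its statement on biological replicates, so p-values measure the spread between these libraries. The 10 genes and the lists were chosen with earlier results of these data known. The text names the 10 genes and, per list, up to 3 genes with the smallest p and those under the minimum, besides neighbours and like genes, and 1 listed gene is not reported here. Further names that account for a small count, and Myc, Lif, Kdm3a, Gbx2, Zfp36 and Socs7, were chosen after their values were seen. Promoter windows are RefSeq's, searched for 4 motifs on both strands. Alternatives covered the pseudocount, filter, scaling, trend, block, each library left out and voom.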

Additional observations from a re-analysis of the deposited data

How the results depend on the processing

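Under the settings tried, Pim1 alone of the 9 tested genes turned its sign, though the trend, the block and the filter leave a fold change as it is. Pim1 ran from -0.05 (without siCtrl replicate 2) to 0.21 with 1 library left out. The receptor median ran from -0.39 to -0.13 with 1 library left out, and the target median from -0.08 to 0.04, being 0.08 at a mean RPKM of at least 2, where Bcl3 was no longer tested. Lower genes among the 10 numbered 5 to 7, and higher genes 1 to 3, with 1 library left out. A group of 1 library parts from a group of 2 more easily than 2 from 2. The share over all genes was not computed there, so a larger count does not show more genes apart. Without scaling there were 4 lower and 2 higher. At a mean RPKM of at least 2, which left 8 of the 10, there were 4 lower and 1 higher. These counts do not depend on the pseudocount, trend, block or test. The number of genes past the test ran from 0 to 12 with 1 library left out (2 without siCtrl replicate 1, 12 without siEsrrb replicate 2), and none of them was among the 10. No label pairs the libraries. With the replicate number as a block, limma passed 0 genes (2556 before adjustment), and voom passed 2750 (28.2%), of them 7 of the 10 genes. These were Lifr, Il6st, Stat3, Socs3, Bcl3, Pim2 and Pim3, and the directions were as above. The fewest reads behind a value of the 10 genes were 169 for Pim2 and 203 for Junb, both in siCtrl replicate 1.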
